A study of Oryza sativa Japonica Group with 15 samples.

Results

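The genes described here are those whose transcripts in rice roots lay below the mock level after 1 leaf spray of piperonylic acid (PA) and above it after 2. Of the 14025 rice genes with a mean of at least 20 normalised reads over the 15 libraries, 306 were members, or 2.18%. The table had 36747 rows in all. Members were chosen by measured values: the highest of the 3 single-spray libraries had to lie below the lowest mock library, the lowest of the 3 double-spray libraries above the highest mock library, and the mean log2(value + 1) after 2 sprays had to exceed that after 1 by at least 0.8. The contrasts among mock, 1 spray and 2 sprays are therefore a description of the choice and carry no test here. The 6 libraries of the other compounds, acibenzolar-S-methyl (ASM) and beta-aminobutyric acid (BABA), entered the rule only through the mean over the 15 libraries. They had no part in the order of the groups or in the minimum difference.

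Seedlings of the japonica rice cultivar Kitaake were treated on the leaves, and polyadenylated RNA of the roots was read from its 3′ ends with QuantSeq. There were 5 groups of 3 libraries, each library made from pooled roots of 4 plants, so 1 library stands for 1 pool. Mock, BABA at 3.5 mM, ASM at 250 µM and single-spray PA at 300 µM (PA1x) were applied on day 13 after transplantation. Double-spray PA at 300 µM (PA2x) was applied on days 7 and 13, and all roots were harvested on day 14. The labels give no mock group sprayed on both days, so the number of PA sprays and the extra spraying on day 7 cannot be told apart. All plants received the detergent Tween 20 in the spray, and doses differed between the compounds, so each comparison is one of compound and dose together.

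PA inhibits cinnamate 4-hydroxylase, the enzyme that follows phenylalanine ammonia-lyase (PAL) in the phenylpropanoid pathway, which supplies lignin and many phenolic defence compounds. ASM is a functional analogue of the defence hormone salicylic acid, and BABA is an amino acid, not used in proteins, that primes defence in many plants. In rice, WRKY transcription factors, mitogen-activated protein kinases and the jasmonate repressors of the JAZ family are among the proteins that relay and limit such responses.

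Recovered read totals ran from 4130194 to 9480830 per library. A count of 0 allowed up to 1.96 to 4.84 normalised reads (3 reads), and the lowest member mean was 24.1. Marker genes of shoot tissue summed to between 15.9 and 339 normalised reads per library, at most 0.00549% of the reads. The 5 root markers summed to 42980 to 48960 normalised reads in mock, 40744 to 47787 in PA1x, 28463 to 42235 in PA2x, 39451 to 46331 in BABA and 23801 to 41527 in ASM roots. Within the ASM group they summed to 41527, 23801 and 24046, and within PA2x to 42006, 28463 and 42235. The ASM library with the lowest marker sum, the second, was also the one in which the members were lowest, and the first was highest in both. The third, with a marker sum near that of the second, had a member median of 0.61. The second had 0.41 and the first 0.63 (log2 relative to the mock mean). In PA2x the second library had the lowest marker sum, whereas the members were lowest in the third (0.50, against 0.55 in the second). The part of these markers in the results was not tested. In bulk root RNA, fewer cells of a type and less RNA per cell cannot be told apart.

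The members were moderately to highly abundant. Their median level was 454 normalised reads, from 24.1 to 10556. Of the 306, 34 had a mean of 20 to 100, 187 of 100 to 1000, 84 of more than 1000, and the most abundant, Os03g0273800, stood above these. Together they took 3.93% ± 0.0950 (SD, n = 3) of the normalised reads in mock roots, 2.63% ± 0.0299 in PA1x and 5.63% ± 0.145 in PA2x roots. In the groups outside the order of the rule they took 5.19% ± 0.262 with BABA and 5.39% ± 0.338 with ASM.

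With the deposited size factors, the distance below mock after 1 spray was somewhat larger than the distance above it after 2. Relative to mock, the members' differences of mean log2(value + 1) had a median of -0.68 in PA1x (from -1.55 to -0.26) and 0.55 in PA2x (from 0.20 to 1.63). The step below mock was the larger one in 196 members (64.1%) and the step above in 110. Between PA2x and PA1x the median difference was 1.25, from 0.80 to 2.92, with 21 members at 2 or more and 213 between 1 and 2. The PA1x libraries were below all 12 others in 296 members, and the PA2x libraries were above all 12 others in 25. The rule itself set the order of PA1x, mock and PA2x, so only the BABA and ASM libraries were free here. The share of all genes with these patterns was not counted, so nothing is read from them. With limma across all 18316 genes tested, 206 members passed as lower in PA1x than in mock (3.13% of all genes did), 85 as higher in PA2x than in mock (0.764%), and 305 as higher in PA2x than in PA1x (8.31%). The rule used these 3 contrasts, so nothing is read from their counts.

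**Figure D1:**
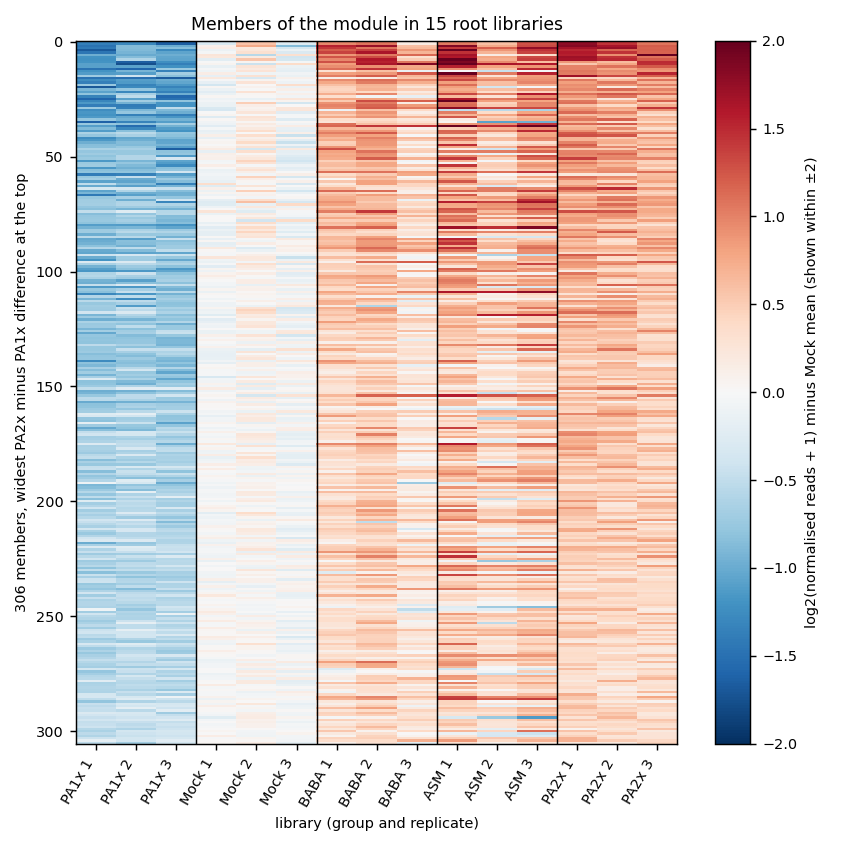
Level of each of the 306 members (vertical axis, widest PA2x minus PA1x difference at the top) in the 15 libraries (horizontal axis), as log2(normalised reads + 1) minus the mock mean, with the colour shown within ±2. The PA1x columns are below mock and the PA2x columns above it by the rule, and most members are also above mock in the BABA and ASM columns.

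The opposite order was less frequent. Without the 0.8 minimum, 460 genes (3.28%) had PA1x below mock and mock below PA2x, and 154 (1.10%) had the mirror order. With the minimum, the rule took 306 genes (2.18%). The mirror rule, with PA1x above mock, PA2x below it and the same minimum, took 94 (0.670%). With libraries scaled to equal totals, in place of the deposited size factors, the median of all genes tested moved from 0.00 to 0.12 for PA1x minus mock, and the rule then took 237 genes and its mirror 149. All 306 members still had their PA1x mean below and their PA2x mean above the mock mean under that scaling. The smallest member steps, -0.26 in PA1x and 0.20 in PA2x, were wider than the shift it made. The sides were thus fixed by the choice, and nothing is read from them. The members' medians relative to mock were then -0.56 in PA1x and 0.52 in PA2x, closer to each other in size. At the edge of the rule, Os10g0519700 (0.80), Os08g0224800 (0.80) and Os03g0700700 (0.81) lay just inside the minimum difference. Os05g0522600 (0.798), Os04g0607100 (0.794) and Os05g0194500 (0.790) lay just outside.

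The widest differences belonged to genes that the table gives by identifier only. Os08g0173300 had 286, 580.0 and 258 normalised reads in the mock libraries, 114, 189 and 137 in PA1x, 1530.4, 956 and 879 in PA2x, 765, 945 and 401 in BABA, and 945, 439 and 643 in ASM. Its PA2x mean was 7.55-fold its PA1x mean, counted on the log2(value + 1) scale, and 1 BABA and 1 ASM library lay below the highest mock library. Os03g0240600 had 183, 338 and 189.9 in mock, 87.8, 93.0 and 71.5 in PA1x, 789, 623 and 479 in PA2x, 442, 479 and 257 in BABA, and 469, 346 and 549.8 in ASM, a 7.31-fold difference between PA2x and PA1x. Here all ASM libraries lay above mock, and 1 BABA library did not. Os02g0270200 had 106, 111 and 75.04 in mock, 35.4, 52.4 and 52.5 in PA1x, 308, 323 and 219 in PA2x, 258, 202 and 152 in BABA, and 257, 220.4 and 329 in ASM, with no BABA or ASM library inside the mock range.

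On chromosome 12, 3 members with neighbouring identifiers stood among the 10 widest. Os12g0154700 had 402, 514 and 405 normalised reads in mock, 135, 238 and 180.2 in PA1x, 1246, 978 and 1008 in PA2x, 1016, 1135 and 805 in BABA, and 2033, 809.6 and 1197 in ASM, and Os12g0154800 and Os12g0154900 had lower levels with the same order of PA1x, mock and PA2x. Their PA2x minus PA1x differences ran from 2.43 to 2.67 on the log2(value + 1) scale. Such neighbours may be similar copies that share reads, which the identifiers alone do not settle. Os08g0137800, also among the 6 most abundant members, had 4879, 4738 and 3198 in mock, 1829, 2313 and 2049.5 in PA1x, 13525, 11403 and 8903 in PA2x, 10021, 10326 and 5296 in BABA, and 12689, 7228 and 10493 in ASM. Every BABA and ASM library of this gene was above every mock library. The remaining 3 of the 10 widest, Os03g0233000, Os09g0493000 and Os01g0968800, had 5.82-, 5.65- and 5.10-fold differences.

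The most abundant member, Os03g0273800, varied less. It had 9402, 9699.5 and 9891 normalised reads in mock, 6446, 7118 and 6413 in PA1x, 12247, 13040.0 and 12045 in PA2x, 11397, 10339 and 10194 in BABA, and 13923, 12300.0 and 13891 in ASM. The 5 groups of this gene were separate except PA2x and ASM, which overlapped. Os08g0205800, Os02g0205500, Os03g0764100 and Os07g0583600 were the other abundant members, with PA2x minus PA1x differences of 1.22, 1.31, 1.09 and 0.99.

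Names could be given to 16 members through lists of known rice genes, which pair identifiers with names from general knowledge. For 6 of them (WRKY24, WRKY71, OPR1, JAZ6, JAZ13 and MPK3) the RefSeq table held a gene of that name on the same chromosome, and for the others it held none. Among defence WRKY genes, 6 of the 12 that the rule could take were members, and among jasmonate genes 5 of 19, 1 of these without a name. General phenylpropanoid genes contributed 3 of 12, abscisic acid genes 1 of 6, stress transcription factors 1 of 10, and the perception and kinase list 1 of 7. None of 6 ethylene, 9 diterpenoid phytoalexin, 8 pathogenesis-related, 7 circadian clock, 4 reference or 5 root marker genes was a member.

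The WRKY members were WRKY70 (Os05g0474800), WRKY24 (Os01g0826400), WRKY53 (Os05g0343400), WRKY28 (Os06g0649000), WRKY71 (Os02g0181300) and WRKY45 (Os05g0322900). WRKY45 is a central activator of the salicylate branch of rice defence, and WRKY53 acts downstream of mitogen-activated protein kinases. WRKY70 had the widest difference of the 6, with 992, 1182 and 854 normalised reads in mock, 444, 583 and 507 in PA1x, 2185, 2014 and 1391 in PA2x, 1604, 1854 and 1091 in BABA, and 2028, 1286 and 1729 in ASM. The lowest BABA library of WRKY70 fell within the mock range and every ASM library lay above it. WRKY45 had 906, 845 and 917 in mock, 567, 682 and 709 in PA1x, 1149, 1189.6 and 1328 in PA2x, 1160.0, 1184 and 1222 in BABA, and 1712, 1691 and 1644 in ASM. Its 3 ASM libraries were the highest of all 15, and its BABA libraries lay inside the span of the PA2x ones.

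WRKY28 was the most abundant WRKY member and differed from WRKY45 in where ASM lay. It had 3910.3, 4005 and 3827 in mock, 2599.6, 2746 and 2316 in PA1x, 6260.1, 7432 and 6074 in PA2x, 4998, 4172 and 3595 in BABA, and 4653, 4447 and 4893 in ASM. All PA2x libraries of WRKY28 were above all 12 others. WRKY71 had 2697, 2904 and 3074 in mock, 1818, 1829.5 and 2047 in PA1x, 4108, 3881 and 4747 in PA2x, 3835, 4392 and 4378 in BABA, and 5581, 3962 and 3801 in ASM, so that BABA, ASM and PA2x overlapped above mock. WRKY24 and WRKY53 had PA2x minus PA1x differences of 1.74 and 0.92.

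The jasmonate members were 2 JAZ repressors, JAZ13 (Os10g0391400) and JAZ6 (Os03g0402800), RERJ1 (Os04g0301500), a jasmonate-responsive basic helix-loop-helix transcription factor, OPR1 (Os06g0216300), an oxophytodienoate reductase homologue, and Os03g0181100, given by its identifier. OPR1 had 284, 274 and 359 normalised reads in mock, 101, 144 and 108 in PA1x, 481, 361 and 521 in PA2x, 524, 532 and 438 in BABA, and 929.8, 622 and 778 in ASM. The lowest PA2x library of OPR1 only just cleared the highest mock library, and all 3 ASM libraries were above all others. JAZ13 had 1257, 1698 and 1230.1 in mock, 773, 762 and 795 in PA1x, 2598, 2631 and 2116 in PA2x, 2070.0, 2106 and 1695 in BABA, and 1875, 1703 and 2039 in ASM. The second mock library of JAZ13 was the highest of its group and lay just above the lowest BABA library. JAZ6, RERJ1 and Os03g0181100 had PA2x minus PA1x differences of 1.05, 1.19 and 1.15.

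Phenylpropanoid members were PAL3 (Os02g0626600), PAL4 (Os02g0627100) and PAL6 (Os04g0518400), isoforms of the enzyme at the entry of the pathway, upstream of the step that PA inhibits. PAL4, by far the most abundant of the 3 in these 3′ reads, had 2491, 2920.0 and 2121 normalised reads in mock, 1468, 1481 and 1372 in PA1x, 4543, 4431 and 3509 in PA2x, 4246, 4105 and 2982 in BABA, and 4952, 4665 and 5786 in ASM. No BABA, ASM or PA2x library of PAL4 overlapped mock, and ASM was above the other groups. PAL3 had 199.5, 210.1 and 156 in mock, 107, 124 and 85.1 in PA1x, 359, 362 and 288 in PA2x, 324, 345 and 212 in BABA, and 362, 322 and 459 in ASM. PAL6 had a PA2x minus PA1x difference of 1.36. PAL3 and PAL4 are neighbouring, similar genes and may share reads.

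The other 3 named members were single genes of their lists. ZFP182 (Os03g0820300), a stress-induced zinc finger protein, had the lowest PA1x level relative to mock of the named members: 785, 811 and 709 normalised reads in mock, 235, 317 and 304 in PA1x, 1413, 887 and 1182 in PA2x, 1055, 1198 and 907 in BABA, and 1360.4, 597 and 755 in ASM. The ASM libraries of ZFP182 fell on both sides of mock. NCED4 (Os07g0154100), an enzyme of abscisic acid synthesis, had 244, 270.0 and 314 in mock, 134, 128 and 198 in PA1x, 405, 345 and 543 in PA2x, 432, 539 and 485 in BABA, and 792, 410.1 and 371 in ASM. MPK3 (Os03g0285800), a mitogen-activated protein kinase of pattern-triggered immunity, had 2320.5, 3034 and 2383 in mock, 1496, 1555 and 1391 in PA1x, 3683, 3724 and 3411 in PA2x, 3378, 3410.5 and 2829 in BABA, and 3294, 2996 and 3816 in ASM.

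**Figure D2:**
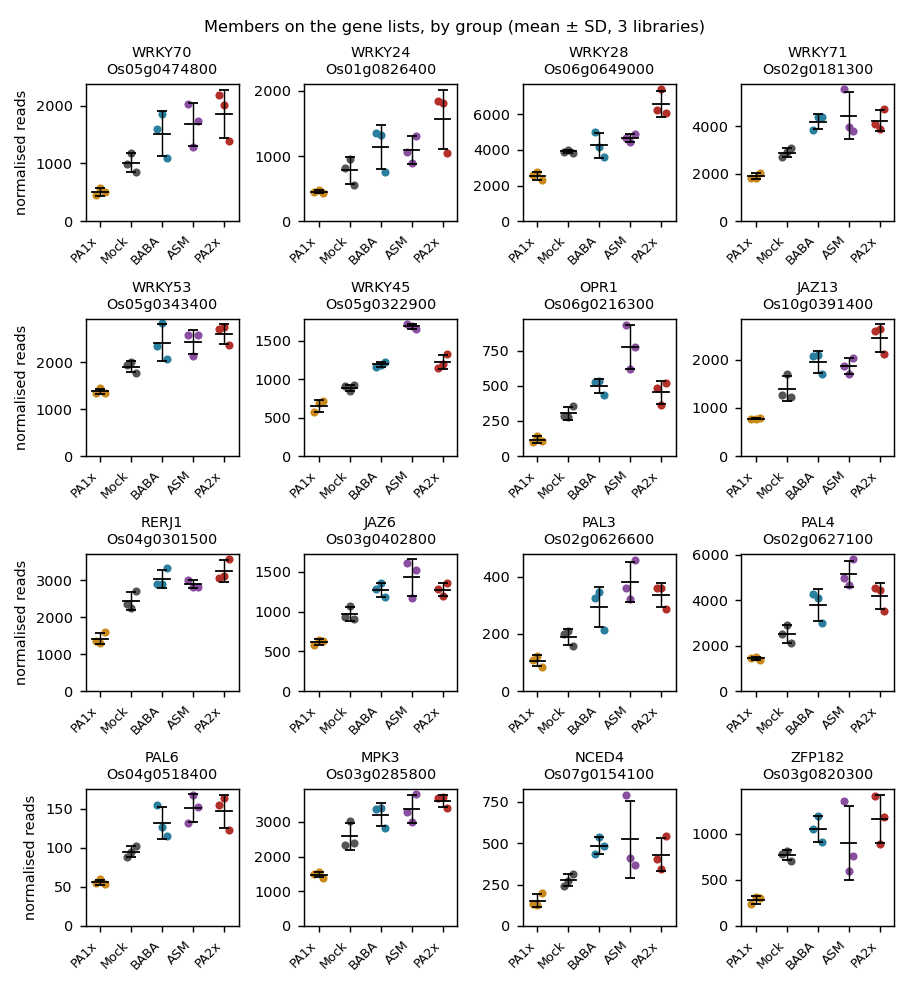
Normalised reads (vertical axis, from 0) of the 16 named members in each group (horizontal axis); points are libraries, bars the mean ± SD of 3 libraries. By the rule PA1x lies below mock and PA2x above it in every panel, and the ASM points of WRKY45, OPR1 and PAL4 lie above those of PA2x.

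Genes of the same lists that were not members divided by which condition of the rule they missed. The share of all genes meeting each condition was not counted, so nothing is read from the counts of non-members. Among the stress transcription factors, 8 of the 9 non-members had all PA1x libraries below mock and 2 had all PA2x libraries above it. Among the 14 jasmonate non-members, 6 met the first condition and 6 the second. In 4 genes both conditions held and the difference missed 0.8, namely DREB2A (0.75), AOC (0.67), JAZ4 (0.61) and EREBP1 (0.56). Among the 6 WRKY non-members, 1 met the first condition and 2 the second. WRKY76 (Os09g0417600), a defence WRKY that was no member, shows the second case, with 73.3, 102 and 94.1 normalised reads in PA1x against 109.6, 95.5 and 116 in mock, which overlapped, and 352, 326 and 413 in PA2x. Across whole lists, 10 of 12 WRKY, 15 of 19 jasmonate, 8 of 13 phenylpropanoid and 9 of 10 stress transcription factor genes tested passed as higher in PA2x than in PA1x (8.31% of all genes did), and no gene of these lists passed as lower. These totals include the 6, 5, 3 and 1 members that the rule chose on the same contrast, so nothing is read from them.

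The compounds outside the order of the rule placed most members above mock too. Relative to the mock mean, the median member lay at 0.46, 0.55 and 0.27 in the BABA libraries and at 0.63, 0.41 and 0.61 in the ASM libraries (log2), beside 0.62, 0.55 and 0.50 in PA2x and -0.71, -0.63 and -0.68 in PA1x. All 3 ASM libraries were above all 3 mock libraries in 216 members (70.6%), a pattern that 10.9% of all genes tested showed. For BABA the same held in 186 members (60.8%), against 7.67% of all genes. All 6 libraries were above mock in 157 members (51.3%), against 4.05%. The reverse, all libraries below mock, occurred in 6 members with ASM (8.89% of all genes) and in 0 with BABA (7.26%). These comparisons share the mock libraries with the rule, and mock libraries that bounded the choice also set the reference here.

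**Figure D3:**
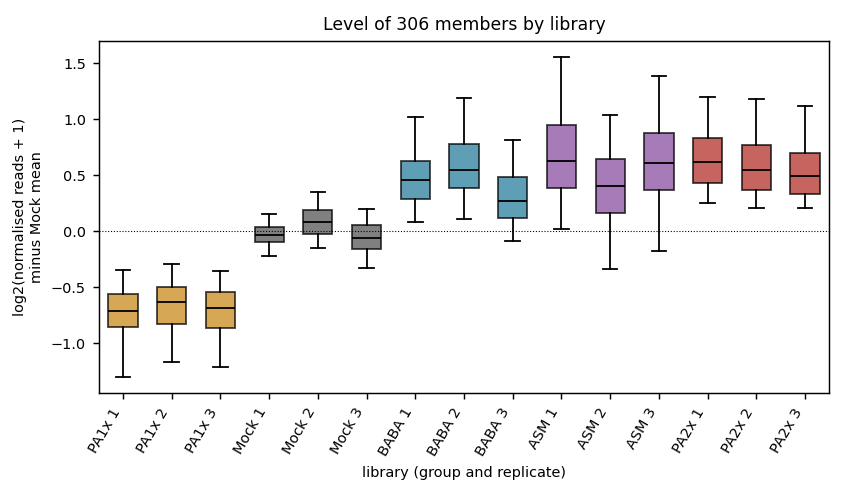
Difference of each of the 306 members from its mock mean (vertical axis, log2 of normalised reads + 1) in each library (horizontal axis); boxes span the quartiles with the median as a line, and whiskers reach the 5th and 95th percentiles. The medians of the BABA libraries lie at 0.27 to 0.55 and those of the ASM libraries at 0.41 to 0.63, beside 0.50 to 0.62 in PA2x.

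The ASM mean exceeded the PA2x mean in 154 members, lay between mock and PA2x in 129, between PA1x and mock in 21 and at or below PA1x in 2. The BABA mean exceeded the PA2x mean in 74, lay between mock and PA2x in 231 and between PA1x and mock in 1. The highest of the 5 group means was ASM in 142 members, PA2x in 142 and BABA in 22. Within groups, single libraries shifted many members together: the third BABA library was the lowest of its group in 213 members (69.6%, against 35.5% of all genes tested), and the second ASM library in 213 (69.6%, against 31.4%). Among the mock libraries, the second was highest in 176 (57.5%, against 37.7%). The median SD within the ASM group was 0.201 for members and 0.195 for all genes the rule could take (log2). With BABA it was 0.192 and 0.196, in mock 0.146 and 0.176, in PA1x 0.114 and 0.136, and in PA2x 0.166 and 0.200. The rule asked that mock, PA1x and PA2x not overlap, which favours genes of small spread there, so nothing is read from those values.

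With ASM, 158 members passed as higher than mock and 2 as lower, by limma with Benjamini-Hochberg adjustment over all genes. Over all genes tested 3.28% passed as higher and 1.26% as lower, and over the genes the rule could take 4.05% passed as higher. The members' median difference was 0.55, beside -0.01 over all genes, and 283 of 306 were above 0. The 158 ran from 0.34 to 1.82 on the log2 scale with a median of 0.80. Leaving out 1 library gave 98 (without the first mock library) to 155 passing members, and 102 passed without the third ASM library.

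The member with the greatest ASM difference was Os05g0583050, with 21.6, 26.9 and 28.1 normalised reads in mock and 102, 73.2 and 105 with ASM (log2 1.82 ± 0.20, SE; limma adjusted p = 7.74e-05). Os05g0449200 (1.80), Os02g0733900 (1.68), Os03g0122300 (1.66) and Os01g0892800 (1.57) followed, each passing with every library left out in turn. Of the 17 listed members, 7 rose with ASM. OPR1 rose by 1.33 ± 0.18 (limma adjusted p = 0.000384), PAL4 by 1.04 ± 0.15 (0.000959), PAL3 by 1.01 ± 0.20 (0.00652) and WRKY45 by 0.92 ± 0.10 (5.71e-05). These 4 passed under every alternative tried. PAL6 (0.65 ± 0.15), WRKY71 (0.60 ± 0.14) and JAZ6 (0.55 ± 0.12) also passed, with limma adjusted p of 0.0161, 0.0187 and 0.0133. Without the first mock library their adjusted p were 0.0891, 0.108 and 0.0724. PAL6 also missed the threshold without the second ASM library (0.0730) or the third (0.0660), and JAZ6 without the third ASM library (0.0733) or the third mock library (0.0602).

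The other listed members did not pass with ASM. WRKY70 had a log2 difference of 0.72 (limma adjusted p = 0.0697), NCED4 of 0.85 (0.0628), JAZ13 of 0.44 (0.0829) and MPK3 of 0.39 (0.0998). WRKY24, WRKY53, WRKY28, RERJ1 and Os03g0181100 had values of 0.50, 0.34, 0.25, 0.25 and 0.31, and ZFP182 of 0.15. Leaving out the first ASM library turned ZFP182 to -0.19, with an adjusted p of 0.679.

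Only Os01g0298400 and Os07g0680600 passed in the opposite direction. Os01g0298400 had 169, 224 and 209 normalised reads in mock, 144, 149.8 and 152 in PA1x, 244, 316 and 243 in PA2x, 195, 211 and 251 in BABA, and 159, 118 and 90.5 in ASM. Its ASM difference was -0.73 ± 0.18 (limma adjusted p = 0.0272). Os07g0680600 had 2607, 2565 and 2761 in mock, 1723, 1740.3 and 1994 in PA1x, 3716, 3579.5 and 3290.1 in PA2x, 2467, 2821 and 2792 in BABA, and 2227, 1614 and 1471 in ASM, a difference of -0.60 ± 0.13 (0.0153). In both, the second and the third ASM library lay below every PA1x library, and the BABA libraries overlapped mock. Neither passed without the second ASM library (adjusted p 0.0747 and 0.0637), the third ASM library (0.140 and 0.0921) or the third mock library (0.0903 and 0.0602). The first also missed without the second mock library (0.0795) and the other without the first (0.0607).

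With BABA, 20 members passed as higher than mock and none as lower, against 0.218% and 0.0328% of all genes tested and 0.285% as higher among those the rule could take. All 20 also passed with ASM. At an unadjusted limma p under 0.05, 216 members were higher with BABA and 0 were lower. Over all genes tested, 1893 (10.3%) reached that level in either direction. edgeR and DESeq2 passed 0 members as lower. No share over all genes is given for these methods, so nothing is read from that. The members' median was 0.41, beside -0.01 over all genes, and 305 of 306 were above 0. The count depended on single libraries: 0 passed without the first mock library, 3 without the first BABA library, 2 without the second, 9 without the second mock library, 13 without the third, and 42 without the third BABA library.

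Os05g0583050 also had the greatest passing BABA difference, with 58.1, 69.7 and 71.3 normalised reads against the mock values above (1.35 ± 0.20, limma adjusted p = 0.0117). Os04g0464100 followed at 1.02 (0.0478), and Os02g0764700 and Os04g0585000 at 1.00 (0.0117 and 0.00529). Os01g0773800 had 296, 313 and 292 in mock, 126, 139 and 150.3 in PA1x, 625, 476 and 635 in PA2x, 578, 655 and 582 in BABA, and 759.8, 584 and 568 in ASM. Its BABA difference was 1.01 ± 0.13 (limma adjusted p = 0.00484), and BABA, ASM and PA2x overlapped well above mock. All 5 missed the threshold without the first mock library, with adjusted p of 0.117, 0.167, 0.117, 0.0597 and 0.0514 in the order given here. Without the second BABA library the first 4 also missed it, at 0.0863, 0.259, 0.0895 and 0.0505. Os02g0764700 (0.0558) and Os04g0464100 (0.0591) missed it without the first BABA library, and Os04g0464100 also without the third (0.0836) or the second mock library (0.141). No listed member passed with BABA. The lowest adjusted p among them were those of WRKY45 (0.42, 0.0840), OPR1 (0.71, 0.118) and WRKY71 (0.54, 0.126).

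**Figure D4:**
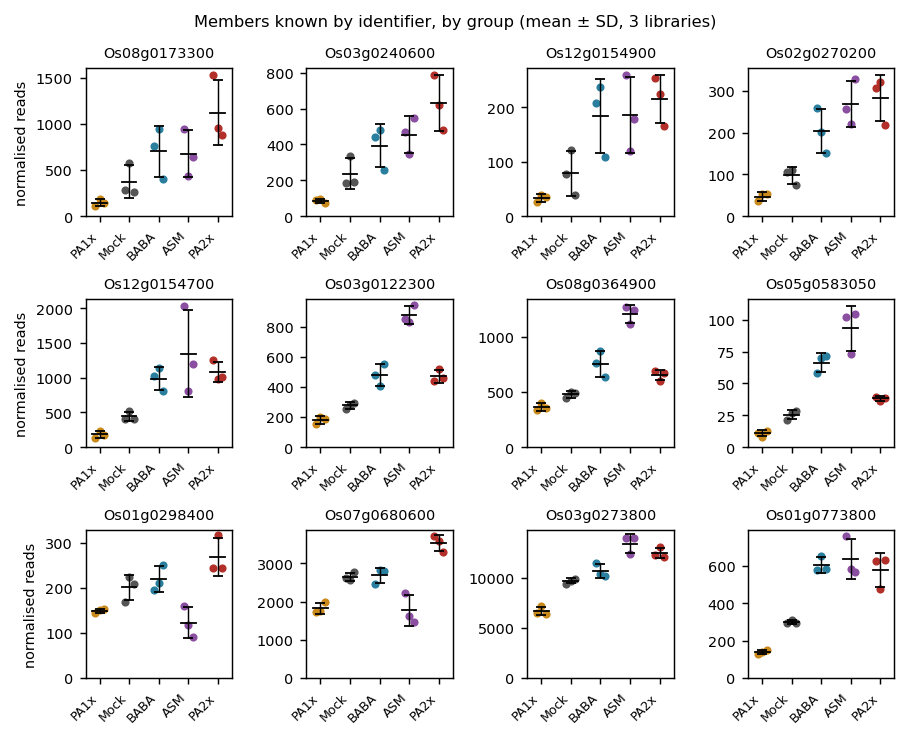
Normalised reads (vertical axis, from 0) of 12 members known by identifier in each group (horizontal axis); points are libraries, bars the mean ± SD of 3 libraries. In Os01g0298400 and Os07g0680600 the ASM points lie below mock, while in Os03g0122300 and Os08g0364900 they lie above all others.

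Set directly against each other, ASM and BABA differed in few members. The log2 difference itself uses ASM and BABA libraries only. The spread behind the limma p-values came from all 15 libraries, with mock, PA1x and PA2x among them. By limma, 3 members passed as higher with ASM and none as lower, against 0.213% and 0.0874% of all genes tested, and 0.264% as higher among those the rule could take. At an unadjusted limma p under 0.05 there were 85 members, 63 of them higher with ASM. Over all genes tested, 1968 (10.7%) reached that level in either direction. edgeR passed 4 members as higher and 0 as lower, and DESeq2 passed 13 as higher and 7 as lower. No share over all genes is given for edgeR and DESeq2, so nothing is read from their counts. The median difference was 0.12, beside 0.01 over all genes, with 211 of 306 above 0. The 3 were Os03g0122300, Os08g0364900 and WRKY45. With only the 6 libraries compared in the fit, 0 members passed.

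Os03g0122300 had 252, 280.4 and 295 normalised reads in mock, 153, 201 and 187 in PA1x, 436, 517 and 456 in PA2x, 478, 405 and 551 in BABA, and 850.3, 829.8 and 941 in ASM. It was higher with ASM than with BABA by 0.88 ± 0.13 (limma adjusted p = 0.0103), while BABA overlapped PA2x. Os08g0364900 had 440.4, 500.1 and 489 in mock, 336, 399 and 353 in PA1x, 690.4, 603 and 675 in PA2x, 762, 869.7 and 635 in BABA, and 1268, 1117 and 1246 in ASM, a difference of 0.69 ± 0.12 (0.0204). WRKY45, with the values above, differed by 0.50 ± 0.10 (0.0397). In all 3 genes the 3 ASM libraries were the highest of the 15. Without the third ASM library none of the 3 passed (adjusted p 0.101, 0.128 and 0.150). Os08g0364900 and WRKY45 also missed the threshold without the second ASM library (0.0554 and 0.168), the first BABA library (0.0676 and 0.125) or the third BABA library (0.0626 and 0.0771), and WRKY45 without the second (0.156). Without the first ASM library 18 members passed, 9 in each direction.

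The remaining named members did not pass between ASM and BABA, and their intervals left room for sizeable differences. The 95% interval of the log2 difference ran from 0.25 to 1.00 for OPR1 (unadjusted for the number of genes; limma adjusted p = 0.172), from 0.13 to 0.78 for PAL4 (0.268) and from -0.30 to 0.61 for WRKY70 (0.867). For MPK3 it ran from -0.20 to 0.33 and for WRKY53 from -0.24 to 0.27. On the lower side, Os01g0298400 had -0.86 (0.0574) and Os07g0680600 -0.63 (0.0661).

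**Figure D5:**
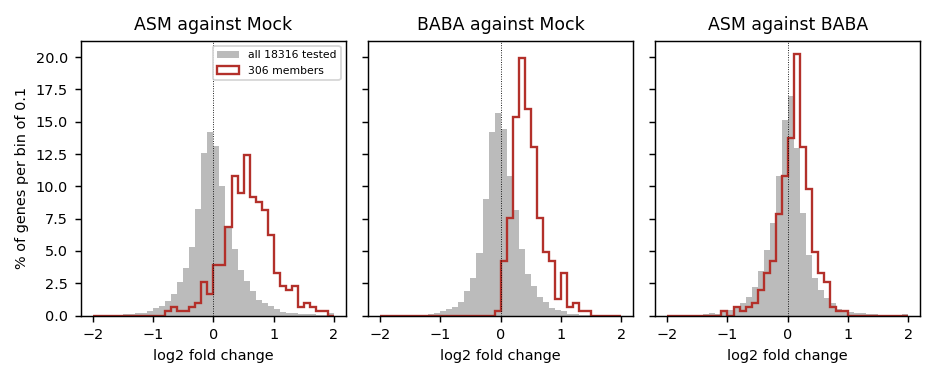
Share of genes (vertical axis, % per bin of 0.1) by log2 fold change (horizontal axis, values beyond ±2 drawn at the ends) for ASM against mock, BABA against mock and ASM against BABA; grey is all 18316 genes tested, the red line the 306 members. The members' medians are 0.55, 0.41 and 0.12, beside -0.01, -0.01 and 0.01 over all genes.

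Members with a wider PA2x minus PA1x difference also had larger ASM and BABA differences from mock. In 4 groups of 76 or 77 members by that difference, from narrowest to widest, the median ASM difference was 0.41, 0.51, 0.56 and 0.88, and the median BABA difference 0.32, 0.36, 0.43 and 0.65. Spearman's rho across the 306 members was 0.43 for ASM and 0.52 for BABA, and 0.11 for ASM against BABA. Genes are not independent replicates, and the mock libraries enter one side of the first 2 relations and the choice of members on the other. The mirror set of 94 genes lay on the other side of mock: its median was -0.50 with ASM and -0.34 with BABA, with 36 and 5 of its genes lower past the threshold and 0 higher.

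Members were spread over all 12 chromosomes, by the number in their identifiers. Chromosome 1 held 59 of 2065 genes the rule could take (2.86%), and chromosome 9 held 8 of 750 (1.07%). Some lay close together: 41 members (13.4%) had another member within 500 identifier units, where adjacent annotated genes usually differ by 100, forming 19 runs. There were 3 runs of 3, at Os02g0584700 to Os02g0585100, Os08g0137800 to Os08g0138200 and Os12g0154700 to Os12g0154900. Of 876 neighbouring places of members filled by a gene the rule could take, 50 held a member (5.71%). These were 25 pairs of members, each counted from both sides. A gene could fill several places, whereas the 2.18% of all such genes counts each gene 1 time. How many reads such neighbours share was not tested.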

How the data were processed

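The authors deposited 1 table of normalised read counts per gene, a signal in which each library's reads were divided by 1 size factor, per the values themselves and the submitters' processing notes. Those notes name FastQC 0.11.8, Trimmomatic 0.38, STAR 2.6.1d and DESeq2. Build, annotation and strand are not given in the sources, so overlapping and antisense genes cannot be told apart. Sequences are not used here. Whole reads were recovered by their steps (100% of values whole within 0.1). Every replicate pair differed by more than sampling noise (chi-square over its degrees of freedom at least 3.48).

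Samples were grouped by their treatment labels. Log2(normalised reads + 1) of 18316 genes with a mean of at least 5, all 306 members among them, was tested by limma-trend 3.58.1 in R 4.3.3, with 15 libraries in 1 fit, two-sided, Benjamini-Hochberg adjusted at 0.05. Fold changes on that scale understate those of low genes, and p-values measure the spread between pools of plants. edgeR 4.0.16 and DESeq2 1.42.0 on recovered reads, other scalings, filters and pseudocounts, and leaving out each library were alternatives. Intervals and floors cover spread between libraries and counting error respectively, and reads carry no molecular identifiers.

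The members and lists were chosen with earlier results of these data known. Named genes were the 10 members with the widest PA2x minus PA1x difference, the 6 most abundant, all on a list, the 3 on each side of the minimum, up to 5 passing per direction in each ASM and BABA comparison, and neighbouring members. WRKY76 and the genes that missed the minimum only were named after their values were seen.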

Additional observations from a re-analysis of the deposited data

How the results depend on the processing

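The number of members was 306 by the rule as given, 405 and 234 with minimum differences of 0.5 and 1, 328 and 290 with mean minimums of 5 and 50, and 296 with TMM scaling, of which 295 were among the 306. With total-count scaling 220 of 237 were. Leaving out 1 library gave 313 to 504, with 488 without the second mock and 504 without the third PA2x library. Fewer libraries then had to lie apart, so the rule asked less. All 306 were kept whichever mock library was left out. Apart from the mean minimum, leaving out a mock library cannot remove a member, so nothing is read from this. Members passing for ASM against BABA were 3, and 5 with TMM scaling, 0 with only the 6 libraries compared, 20 with DESeq2, 4 with edgeR, and 0 to 18 with 1 library left out. For ASM against mock they were 160, with 88 when only the 6 libraries were fitted, 164 with edgeR, 190 with DESeq2, and 98 to 155 with 1 library left out. For BABA against mock they were 20, with 34 at a mean filter of 20, 34 with total-count scaling, 5 with only the 6 libraries, 30 with edgeR, 84 with DESeq2, and 0 to 42 with 1 library left out. The share of all genes passing under each alternative is not given here, and the causes were not tested. A fit of 6 libraries has fewer libraries to estimate the spread, and it also leaves out PA1x and PA2x. In these the members' median SD was 0.114 and 0.166 (log2), beside 0.136 and 0.200 for all genes the rule could take. The part of each in the counts cannot be told apart here. When a library was left out of the fit, its group's 2 others shared the spread estimate of all groups.

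Samples share only a replicate number: same-numbered libraries had correlations of -0.19, -0.09 and -0.27 between ASM and BABA, 0.02, -0.06 and -0.33 between ASM and mock, and -0.01, 0.21 and 0.40 between BABA and mock. With the replicate number as a block, 4, 159 and 25 members passed in the comparisons of ASM with BABA, ASM with mock and BABA with mock.

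Of 1024 values of single genes under alternatives, 917 kept their direction and side of the threshold, 89 lost the threshold, 16 gained it and 2 changed sign: ZFP182 with ASM (-0.19 without the first ASM library) and WRKY28 with BABA (-0.015 without the first BABA library and 0.22 without the third), neither of which passed. Of 37 passing results of named genes, 16 passed under every alternative. How calls depend on a member's level or on depth was not tested.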
